A study of Mus musculus with 24 samples.

Results

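The genes described are the 3 ligands of the TGF-β pathway (Tgfb1, Tgfb2 and Tgfb3), its 2 signalling receptors (Tgfbr1 and Tgfbr2), the transducer Smad3, the feedback inhibitor Smad7, and 2 genes known as TGF-β targets (Tgfbi and Lrrc15). They were listed by name, but with earlier results of these data known, and make 9 of the 28328 genes in the table. Levels come from RNA sequencing of LLC1, a single cell line grown from the mouse Lewis lung carcinoma, so every library shares one genetic background and the cultures hold no host tissue. Groups were the platinum compound cisplatin at 2.5 µM with the antifolate pemetrexed at 2.5 µM (CP, chemotherapy), the MEK inhibitor trametinib at 10 nM (T), the 3 drugs at those doses together (TCP, the combination), and cells given only DMSO at 0.1% (NT, untreated), each at 6 h and at 24 h. The labels do not say whether drug-treated cells also received DMSO, so a vehicle difference cannot be told apart from the drugs in any change against NT. Each of the 8 groups had 3 libraries, 24 in all, and no source used here says whether the 3 were cultured apart. The p-values are thus about the spread of these libraries alone, which may be technical. Values are TPM, a transcript's share of a library's RNA corrected for length, summed per gene, so levels can be set side by side between genes, but the read depth behind them is unknown. A change below is a difference in log2(TPM + 1) with its standard error, 3 libraries a side. Rose, fell, higher and lower in a treatment are used of changes with a limma p under 0.05 after Benjamini-Hochberg adjustment over 12581 genes.

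TGF-β ligands are secreted as latent dimers that have to be activated outside the cell. The active ligand binds the type II receptor, encoded by Tgfbr2, which recruits and phosphorylates the type I receptor, encoded by Tgfbr1, and this kinase then phosphorylates SMAD2 and SMAD3, which enter the nucleus with SMAD4 and bind DNA. SMAD7 is induced by the pathway and blocks it at the receptors. In carcinomas the pathway is known for slowing proliferation at early stages, for matrix and mesenchymal gene expression later, and for effects on immune cells.

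In GRCm38 with the GENCODE M21 annotation, Tgfb1 (ENSMUSG00000002603.15) spans chr7:25687002-25705077 on the plus strand, Tgfb2 (ENSMUSG00000039239.14) chr1:186622792-186705989 on the minus strand and Tgfb3 (ENSMUSG00000021253.7) chr12:86056745-86079041 on the minus strand. The receptors lie at chr4:47353222-47414931 on the plus strand (Tgfbr1, ENSMUSG00000007613.15) and chr9:116084293-116175360 on the minus strand (Tgfbr2, ENSMUSG00000032440.13). Smad3 (ENSMUSG00000032402.12) is on the same chromosome as Tgfbr2, at chr9:63646767-63757994 on the minus strand. Tgfbi (ENSMUSG00000035493.10) is at chr13:56609523-56639562 on the plus strand and Lrrc15 (ENSMUSG00000052316.9) at chr16:30269302-30283256 on the minus strand. These 8 genes and Smad7 are all annotated as protein coding, and each value is the sum of the deposited TPM of the gene's matched transcripts.

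Promoter stretches are shown for Tgfb2, Tgfbr2, Tgfbi and Lrrc15, the genes with a RefSeq promoter entry (assembly GRCm38.p6) that were higher with trametinib at both times, so that the sequences just upstream of these transcripts can be read side by side. Each runs 5′ to 3′ on the gene's strand and ends before both the RefSeq and the GENCODE start, and capitals mark matches to the motifs named after them.
Tgfb2 (chr1:186705990-186706239, minus strand): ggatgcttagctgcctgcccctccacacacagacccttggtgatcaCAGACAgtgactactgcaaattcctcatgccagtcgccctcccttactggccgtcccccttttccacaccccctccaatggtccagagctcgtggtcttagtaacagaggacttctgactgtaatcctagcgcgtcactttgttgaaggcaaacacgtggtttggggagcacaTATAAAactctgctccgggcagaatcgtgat
Tgfbr2 (chr9:116175364-116175613, minus strand): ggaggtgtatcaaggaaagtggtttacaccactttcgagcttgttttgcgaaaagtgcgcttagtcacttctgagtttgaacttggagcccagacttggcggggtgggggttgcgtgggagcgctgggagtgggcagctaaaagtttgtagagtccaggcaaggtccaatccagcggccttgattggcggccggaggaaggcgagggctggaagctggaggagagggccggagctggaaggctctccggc
Tgfbi (chr13:56609336-56609522, plus strand): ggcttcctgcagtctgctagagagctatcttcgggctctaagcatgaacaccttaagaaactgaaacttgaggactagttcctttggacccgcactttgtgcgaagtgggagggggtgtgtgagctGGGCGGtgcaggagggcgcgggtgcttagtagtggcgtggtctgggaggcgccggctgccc
Lrrc15 (chr16:30283257-30283504, minus strand): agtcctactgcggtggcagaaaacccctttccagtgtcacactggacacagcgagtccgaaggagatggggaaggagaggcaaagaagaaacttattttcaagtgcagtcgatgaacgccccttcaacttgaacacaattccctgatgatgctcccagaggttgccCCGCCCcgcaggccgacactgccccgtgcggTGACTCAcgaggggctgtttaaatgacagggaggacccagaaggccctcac

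The motifs were searched on both strands of a window of 300 bases, 250 before and 50 after the RefSeq start. They were the AP-1 element TGANTCA, held by 7.81% of the 32851 promoter windows in the RefSeq table, the cyclic AMP element TGACGTCA (1.79%), the SMAD element CAGACA (21%), the GC box GGGCGG (35.7%), the TATA box TATAAA (13.6%) and the TEAD element GGAATG (14.7%). The Tgfb2 window held a SMAD element whose first base is at -204 and a TATA box at -31. The Lrrc15 window held an AP-1 element at -53 and, on the opposite strand, a GC box at -84, and the Tgfbi window held GC boxes at -124 and 15. No match to any of the 6 motifs lay in the Tgfbr2 window. Of the other windows, that of Tgfb1 held 6 GC boxes, that of Tgfbr1 held 2 and that of Smad3 held 2, and those 3 windows held none of the other motifs. Windows were searched for 7 of the 9 genes, all but Tgfb3 and Smad7. Tgfb3 had no promoter entry, and Smad7 was left out of the search by name, so nothing is known here of its motifs. A match is a description of the letters, and no binding was measured.

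Libraries had 11242 to 11851 genes at 1 TPM or more, and libraries of a group correlated at 0.982 to 0.994. The cells expressed Vim (mean 3761 TPM), Krt8 (136 TPM) and Krt18 (223 TPM), while the epithelial adhesion genes Epcam (0.000685 TPM) and Cdh1 (0.0749 TPM) were near 0. Of lung epithelial markers, Sftpc and Nkx2-1 averaged 0.0385 and 0.0459 TPM. The macrophage marker Adgre1 and the T cell marker Cd3e were at 0 in every library, and Ptprc averaged 0.000504 TPM. Of the endothelial markers, Cdh5 averaged 0.0131 TPM and Pecam1 4.25 TPM, with up to 12.7 TPM in a library. The LLC1 label names a carcinoma line, so the missing Epcam and Cdh1 go against an epithelial marker set, and the keratins are present.

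In untreated cells at 6 h the order of levels was Tgfbr2 (16.9 TPM), Smad3 (11.7), Smad7 (9.22), Tgfb1 (7.14), Tgfbr1 (6.49), Tgfb3 (5.25), Tgfbi (4.83), Lrrc15 (1.18) and Tgfb2 (1.13), as means in TPM. Only the neighbours Tgfb1 and Tgfbr1, and Lrrc15 and Tgfb2, overlapped between libraries there. With the combination at 24 h, the order was Tgfbi (108 TPM), Tgfbr2 (30.1), Smad3 (21), Tgfb3 (18.4), Smad7 (13.6), Tgfb1 (8.94), Tgfbr1 (6.81), Tgfb2 (5.68) and Lrrc15 (5.09). In that group Smad3 and Tgfb3 overlapped, as did Tgfb2 and Lrrc15. Tgfbi thus held the first place with the combination and the seventh without drug. All 9 genes passed the filter of 1 TPM in 3 libraries, 7 of them in all 24 libraries, Tgfb2 in 21 and Lrrc15 in 16.

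The ligand genes differed in their responses. Tgfb1 rose with chemotherapy at both times, and at 6 h also with trametinib and with the combination. Tgfb2 was raised by trametinib and mainly at 24 h, and Tgfb3 was raised by every treatment at both times. Tgfb1, the ligand most widely made by tumour and immune cells, stood at 11.2, 10.9 and 9 TPM in the CP libraries at 6 h, at 9.52, 8.44 and 9.68 TPM in the T libraries and at 10.3, 10 and 10.7 TPM in the TCP libraries, against 7.59, 6.49 and 7.34 TPM in the NT libraries. All 9 treated libraries lay above all 3 untreated ones. Tgfb1 rose by 0.48 ± 0.10 with chemotherapy (limma adjusted p = 0.00145), by 0.33 ± 0.10 with trametinib (0.00884) and by 0.48 ± 0.10 with the combination (0.000321). In bulk libraries such as these, fewer cells with a transcript and less of it per cell cannot be told apart.

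At 24 h Tgfb1 stood at 15.5, 11.9 and 16.3 TPM in the CP libraries, 6.41, 6.61 and 6.54 TPM in the T libraries and 9.02, 8.18 and 9.61 TPM in the TCP libraries, against 7.26, 8.38 and 8.67 TPM in the NT libraries. Only the CP libraries lay clear above the untreated ones, the T libraries lay below them, and the TCP libraries overlapped them. The change was 0.77 ± 0.10 with chemotherapy (limma adjusted p = 1.93e-06), a fall of -0.27 ± 0.10 with trametinib (0.0249) and 0.13 ± 0.10 with the combination (0.278). The trametinib call at 24 h was lost without NT replicate 2 (0.0732), NT replicate 3 (0.097), T replicate 1 (0.0615) or T replicate 3 (0.0513). Transcript identity also bears on Tgfb1: the main coding transcript gave 69.1% of the gene's TPM, and a transcript annotated as subject to nonsense-mediated decay gave 29.2%. With coding transcripts alone the changes were 0.51 with trametinib at 6 h (0.0855), -0.27 with trametinib at 24 h (0.392) and 0.56 with the combination at 6 h (0.0605). None was smaller in size than with all transcripts, but the standard error was 0.24 in place of 0.10 and the 3 calls ended. Rescaling libraries by the median ratio ended that with trametinib at 6 h (0.0555).

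Tgfb2, a ligand that needs the co-receptor betaglycan for full binding to the type II receptor, stayed near 1 TPM without trametinib. At 6 h its libraries stood at 1.23, 0.94 and 0.751 TPM (CP), 1.34, 1.56 and 1.73 TPM (T) and 1.73, 1.76 and 1.68 TPM (TCP), against 1.24, 1.02 and 1.13 TPM (NT). At 24 h they stood at 0.938, 1.12 and 1.17 TPM (CP), 5.35, 4.02 and 4.21 TPM (T) and 5.37, 6.13 and 5.55 TPM (TCP), against 1.17, 1.08 and 1.16 TPM (NT). Every trametinib and combination library exceeded every untreated library at both times, and the CP libraries overlapped the untreated ones. The rises were 0.26 ± 0.10 (limma adjusted p = 0.0294) with trametinib and 0.36 ± 0.10 (0.00317) with the combination at 6 h, and 1.36 ± 0.10 (3.54e-10) and 1.64 ± 0.10 (1.74e-11) at 24 h, where the means were 3.97 and 4.99 times the untreated one. The small rise with trametinib at 6 h was lost without NT replicate 2 (0.105) or 3 (0.061), or without T replicate 2 (0.0667) or 3 (0.122), and after rescaling by the median ratio (0.0718). It was also lost with the replicate block (0.0547), in a fit of the 6 h libraries alone (0.0541) and with a pseudocount of 5 (0.0738).

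Tgfb3, the ligand whose level in LLC1 moved in all 6 comparisons with untreated cells, stood at 6.56, 7.17 and 7.66 TPM (CP), 13.5, 12.6 and 13.8 TPM (T) and 15.6, 14.9 and 18.6 TPM (TCP) at 6 h, against 5.13, 5.41 and 5.2 TPM (NT). The corresponding libraries at 24 h stood at 12.6, 11.8 and 13.1 TPM (CP), 16.1, 15.1 and 17 TPM (T) and 18.5, 20 and 16.8 TPM (TCP), against 8.86, 8.29 and 8.63 TPM (NT). At each time the CP libraries lay between the untreated libraries below and the T and TCP libraries above, with no overlap. Tgfb3 rose by 0.38 ± 0.077 with chemotherapy (limma adjusted p = 0.00123), 1.20 ± 0.077 with trametinib (2.01e-10) and 1.47 ± 0.077 with the combination (8.3e-12) at 6 h. At 24 h the rises were 0.49 ± 0.077 (1.76e-05), 0.83 ± 0.077 (1.95e-08) and 1.02 ± 0.077 (7.95e-10) in the same order of groups. Tgfb3 also rose in untreated cells between the times, by 0.62 ± 0.077 at 24 h over 6 h (1.02e-06).

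Of the receptors, the type II receptor gene Tgfbr2 rose with trametinib, and the type I receptor gene Tgfbr1 moved little. Tgfbr2 stood at 17.7, 16.3 and 16.5 TPM (CP), 22.2, 23.1 and 22.9 TPM (T) and 21, 21.2 and 22.3 TPM (TCP) at 6 h, against 16.2, 17 and 17.4 TPM (NT). At 24 h it stood at 19, 19.3 and 18.1 TPM (CP), 35, 33.6 and 36.5 TPM (T) and 29.1, 30.5 and 30.6 TPM (TCP), against 18, 19 and 17.5 TPM (NT). Libraries with trametinib lay above all others of their time, and CP libraries overlapped untreated ones. Trametinib raised Tgfbr2 by 0.41 ± 0.047 at 6 h (limma adjusted p = 4.7e-07) and 0.91 ± 0.047 at 24 h (3.77e-12), and the combination raised it by 0.33 ± 0.047 (5.12e-06) and 0.70 ± 0.047 (1.34e-10). The change with chemotherapy was -0.0038 ± 0.047 at 6 h and 0.049 ± 0.047 at 24 h (0.387).

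Tgfbr1 ranged at 6 h from 5.99 to 7.15 TPM (CP), 6.23 to 7.59 TPM (T) and 7.42 to 7.77 TPM (TCP), against 5.66 to 7.24 TPM (NT). Its range at 24 h was 8.11 to 8.84 TPM (CP), 5.93 to 7.16 TPM (T) and 6.44 to 7 TPM (TCP), against 6.72 to 7.28 TPM (NT). The CP libraries at 24 h and the TCP libraries at 6 h lay above the untreated libraries of their time, and the other 4 treated groups overlapped them. Tgfbr1 rose by 0.23 ± 0.084 with chemotherapy at 24 h (limma adjusted p = 0.0262) and by 0.21 ± 0.084 with the combination at 6 h (0.0372). The first call was lost without NT replicate 1 (0.0545), NT replicate 3 (0.0842) or CP replicate 2 (0.0949), and after rescaling (0.0596). The second was lost without NT replicate 1 (0.223) or 3 (0.0592) or TCP replicate 1 (0.0861) or 3 (0.0835), and after rescaling (0.258). It was also lost with the replicate block (0.0601), in a fit of the 6 h libraries alone (0.0924), with no filter (0.0641) and with coding transcripts alone (0.0521), so this small rise depended on the processing. With trametinib the changes were 0.12 at 6 h (95% interval -0.057 to 0.30) and -0.095 at 24 h (-0.27 to 0.082).

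**Figure D1:**
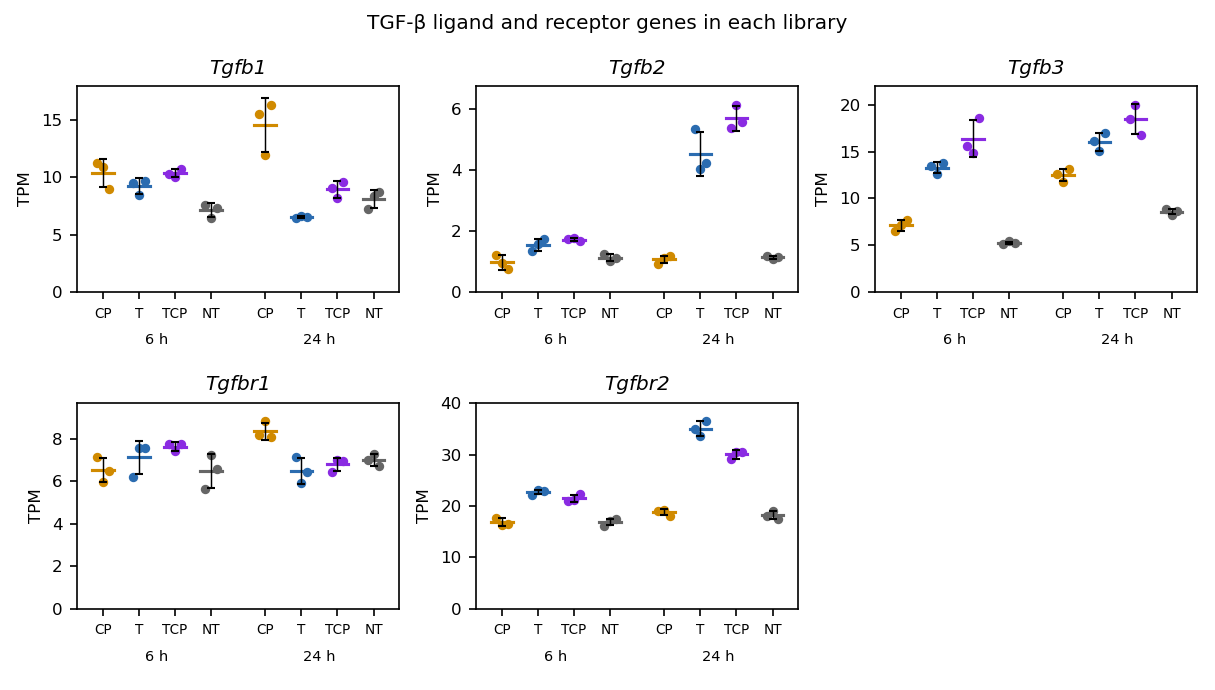
TPM of the 3 ligand genes and 2 receptor genes in each library (points), with group means and SD (n = 3), for CP, T, TCP and NT at 6 h and 24 h. Tgfb1 is highest in the CP libraries at 24 h (11.9 to 16.3 TPM), Tgfb2 exceeds 4 TPM only in the T and TCP libraries at 24 h, and Tgfbr2 reaches 33.6 to 36.5 TPM in the T libraries at 24 h.

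The transducer and the inhibitor behaved differently from each other: Smad3 rose with trametinib at 24 h, and Smad7 rose with chemotherapy at 24 h. Smad3 stood at 8.73, 9 and 10.4 TPM (CP), 13.1, 12.2 and 13.2 TPM (T) and 9.7, 9.84 and 12.2 TPM (TCP) at 6 h, against 11.9, 11.6 and 11.6 TPM (NT). At 24 h the libraries stood at 18, 16 and 18.1 TPM (CP), 23.2, 23 and 24.8 TPM (T) and 21.6, 21.3 and 19.9 TPM (TCP), against 15.5, 15.9 and 16.9 TPM (NT). The CP libraries lay below the untreated ones at 6 h and overlapped them at 24 h, and the T libraries lay above them at both times. Smad3 fell by -0.30 ± 0.075 with chemotherapy at 6 h (limma adjusted p = 0.00704), and rose at 24 h by 0.53 ± 0.075 with trametinib (5.95e-06) and 0.36 ± 0.075 with the combination (0.000334). The 6 h changes with trametinib, 0.12 ± 0.075 (0.183), and the combination, -0.14 ± 0.075 (0.125), did not pass. The second of these did pass without TCP replicate 3 (0.0069) and after rescaling (0.004). In untreated cells Smad3 rose by 0.43 ± 0.075 at 24 h over 6 h (6.46e-05).

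Smad7 (ENSMUSG00000025880.11, chr18:75367529-75395935, plus strand) stood at 10, 7.88 and 8.37 TPM (CP), 5.78, 7.07 and 6.82 TPM (T) and 7.52, 8.16 and 6.44 TPM (TCP) at 6 h, against 8.63, 10.7 and 8.29 TPM (NT). At 24 h it stood at 20.6, 16.4 and 19.5 TPM (CP), 5.18, 3.66 and 4.45 TPM (T) and 14.2, 13.4 and 13.1 TPM (TCP), against 4.52, 4.02 and 3.21 TPM (NT). The CP and TCP libraries at 24 h were all above every other library of that time, and the T libraries overlapped the untreated ones. At 24 h Smad7 rose by 2.01 ± 0.13 with chemotherapy (limma adjusted p = 9.84e-11), 4.81 times the untreated mean, and by 1.57 ± 0.13 with the combination (2.06e-09), 3.46 times that mean. With trametinib the changes were a fall of -0.43 ± 0.13 at 6 h (0.00733), lost without NT replicate 2 (0.0526), and 0.14 ± 0.13 at 24 h (0.353). The untreated level itself fell by -1.06 ± 0.13 at 24 h relative to 6 h (7.04e-07), and the chemotherapy level at 24 h also exceeded the untreated level at 6 h in every library. With the combination at 6 h the change was -0.28 ± 0.13 (0.0625). That change passed after rescaling (0.00737), with the replicate block (0.044), and without NT replicate 3 (0.0456) or TCP replicate 2 (0.0426). Most Smad7 TPM came from 2 transcripts (66.4% and 32.6%).

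Both target genes rose strongly wherever trametinib was given. Tgfbi encodes a secreted matrix protein that binds integrins and collagens, and its name comes from its induction by TGF-β. At 6 h its libraries stood at 5.31, 4.74 and 4.54 TPM (CP), 43.6, 34 and 51.5 TPM (T) and 48, 44.6 and 53.8 TPM (TCP), against 4.7, 4.81 and 4.98 TPM (NT). At 24 h they stood at 6.76, 7.87 and 6.88 TPM (CP), 105, 101 and 104 TPM (T) and 108, 124 and 92.1 TPM (TCP), against 3.82, 3.28 and 3.78 TPM (NT). The lowest trametinib library held more than any library without trametinib, and the CP libraries overlapped the untreated ones at 6 h and lay above them at 24 h. Trametinib raised Tgfbi by 2.90 ± 0.12 at 6 h (limma adjusted p = 6.92e-13) and 4.50 ± 0.12 at 24 h (2.78e-16), or 8.92 and 28.5 times the untreated means, which placed it 5th and 3rd among the 12581 genes by size of rise. The combination raised it by 3.09 ± 0.12 (1.67e-13) and 4.55 ± 0.12 (3.55e-16), 9th and 4th by size. Chemotherapy raised it by 0.82 ± 0.12 at 24 h (6.49e-06), 1.98 times the untreated mean, and the change at 6 h was 0.0064 ± 0.12 (0.978).

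Lrrc15 encodes a leucine-rich repeat protein of the cell surface that TGF-β induces in fibroblasts. At 6 h it stood at 1.41, 0.979 and 0.827 TPM (CP), 10.8, 8.19 and 13.9 TPM (T) and 11.4, 9.95 and 13.7 TPM (TCP), against 1.05, 1.26 and 1.24 TPM (NT). At 24 h it stood at 0.732, 0.944 and 0.887 TPM (CP), 3.77, 3.22 and 5.11 TPM (T) and 5.77, 5.16 and 4.35 TPM (TCP), against 0.182, 0.213 and 0.191 TPM (NT). Trametinib libraries were above all libraries of their time without it, and CP libraries overlapped the untreated ones at 6 h and lay above them at 24 h. With trametinib Lrrc15 rose by 2.43 ± 0.16 at 6 h (limma adjusted p = 2.54e-10) and 2.06 ± 0.16 at 24 h (1.42e-09), and with the combination by 2.53 ± 0.16 (9.48e-11) and 2.34 ± 0.16 (1.62e-10). As ratios of means these were 9.29 and 20.6 with trametinib and 9.88 and 26 with the combination, since a pseudocount of 1 understates changes from the low untreated level at 24 h. Chemotherapy raised it at 24 h by 0.63 ± 0.16 (0.00201), 4.37 times the untreated mean, a call that ended with a pseudocount of 5 (0.15), and the change at 6 h was -0.083 ± 0.16 (0.754).

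Fibroblast markers, as a sum, lay above the untreated libraries of their time wherever trametinib was given, as did the target genes. The sum did not follow those genes throughout. In untreated cells the sum at 24 h lay above that at 6 h, while Tgfbi (-0.34) and Lrrc15 (-0.87) fell. At 24 h the sum in TCP libraries lay above that in T libraries, while for Tgfbi and Lrrc15 these groups overlapped. The summed TPM of Pdgfra, Pdgfrb, Dcn, Lum and Thy1 was 7.12 to 9.75 (T) and 8.96 to 11.5 (TCP) at 6 h, against 2.48 to 2.75 (NT), and 22.7 to 23.3 (T) and 37.6 to 40.8 (TCP) at 24 h, against 5.34 to 6.14 (NT). In CP libraries the sum was 3.36 to 3.57 at 6 h and 7.88 to 8.64 at 24 h. It thus lay above the untreated libraries at both times without trametinib too, while with CP at 6 h Tgfbi and Lrrc15 overlapped them. Of these 5 markers 2 averaged at least 1 TPM, Pdgfra (5.27 TPM) and Dcn (6.29 TPM). None was at 0 in every library, but Lum (mean 0.386 TPM) and Thy1 were at 0 in some. Thy1 averaged 0.00287 TPM and reached 0.0347 TPM at most. The summed TPM of 5 macrophage markers, of which Cd68 alone averaged at least 1 TPM, was 33 to 39.3 TPM (CP) at 24 h against 10.3 to 14.7 TPM (NT), the time at which Smad7 and Tgfb1 were highest with chemotherapy, with Adgre1 at 0. At 24 h the sum of 5 endothelial markers, of which Pecam1 alone averaged at least 1 TPM, was 7.1 to 12.9 TPM (CP), 3.46 to 4.46 TPM (T) and 5.27 to 6.87 TPM (TCP), against 2.62 to 3.61 TPM (NT). The sum of 5 epithelial markers was 451 to 489 TPM (CP), 220 to 257 TPM (T) and 374 to 395 TPM (TCP), against 323 to 337 TPM (NT). The part of these markers in the results was not tested.

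**Figure D2:**
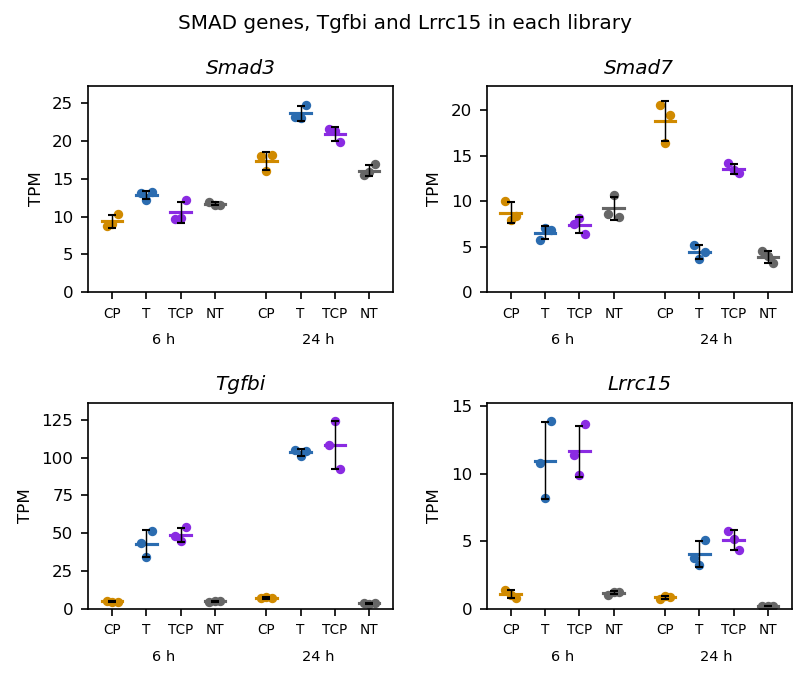
TPM of Smad3, Smad7, Tgfbi and Lrrc15 in each library (points), with group means and SD (n = 3), for CP, T, TCP and NT at 6 h and 24 h. Smad7 is high in the CP (16.4 to 20.6 TPM) and TCP (13.1 to 14.2 TPM) libraries at 24 h, and Tgfbi reaches 92.1 to 124 TPM in the TCP libraries at 24 h.

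Counted over the 9 genes, chemotherapy at 6 h moved 3 (Tgfb1 and Tgfb3 up, Smad3 down), beside 24.8% of all genes tested (11.3% higher, 13.5% lower), and at 24 h it raised 6 and lowered none, beside 59.2% of all genes called (34.9% higher). Trametinib at 6 h raised 6 and lowered 1, beside 54.8% called (35.9% higher, 18.9% lower), and at 24 h it raised 6 and lowered 1, beside 58.7% called (32.4% higher, 26.3% lower). The combination raised 7 at 6 h and lowered none, beside 58.4% called (38.6% higher), and raised 7 at 24 h and lowered none, beside 63.4% called (39.6% higher). The median change of the 9 genes was -0.0038, 0.33 and 0.36 at 6 h with CP, T and TCP, beside 0.009, 0.105 and 0.109 over all genes. At 24 h it was 0.49, 0.83 and 1.02, beside 0.057, 0.036 and 0.103. With so many genes called, the counts say little of the pathway as a whole, and the sizes of the changes in Tgfbi, Lrrc15, Smad7 and Tgfb2 carry the description. Rescaling libraries by the median ratio moved the median of all genes by -0.113 for the combination at 6 h and -0.111 at 24 h, and the share of calls that were higher went to 51.2% and 50.5% under rescaling, beside 66.1% and 62.4% as deposited. With trametinib at 6 h that share was 52.3% rescaled and 65.5% as deposited. The 3 treatments share the untreated libraries of their time, so their changes are not independent of each other.

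**Figure D3:**
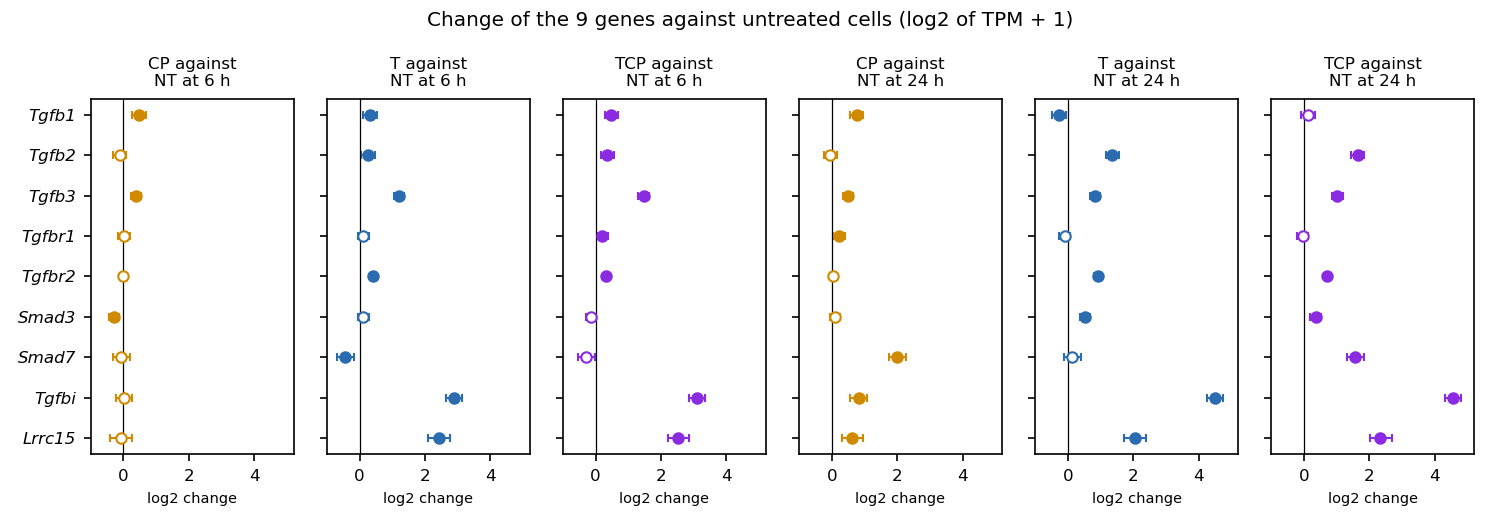
Change of each of the 9 genes in log2(TPM + 1), with 95% intervals and filled points for genes called, for CP, T and TCP against NT at 6 h and at 24 h. The T and TCP changes of Tgfbi are the largest among these genes at both times (2.90 and 3.09 at 6 h, 4.50 and 4.55 at 24 h), and the CP change of Smad7 at 24 h is 2.01.

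Adding trametinib to chemotherapy raised 5 of the 9 genes at 6 h, beside 56.0% of all genes called (39.7% higher). These were Tgfb2 (0.47), Tgfb3 (1.09), Tgfbr2 (0.33), Tgfbi (3.08) and Lrrc15 (2.61), with limma adjusted p of 0.000315 or less. The median of all genes moved by -0.128 under rescaling in this comparison, and the share of calls that were higher was 51.2% rescaled and 70.8% as deposited. At 24 h all 9 genes differed between TCP and CP, beside 53.5% of all genes (30.3% higher, 23.2% lower). Higher in TCP were Tgfb2 (1.69), Tgfb3 (0.52), Tgfbr2 (0.65), Smad3 (0.26), Tgfbi (3.73) and Lrrc15 (1.71). Lower in TCP than in CP were Tgfb1 (-0.64, limma adjusted p = 2.12e-05), Smad7 (-0.44, 0.00658) and Tgfbr1 (-0.26, 0.0126). The Tgfbr1 call ended without CP replicate 2 (0.0527) or TCP replicate 1 (0.0546). Tgfb1, Smad7 and Tgfbr1 each had their highest group mean with chemotherapy at 24 h.

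Adding chemotherapy to trametinib changed fewer of the 9 genes. At 6 h 2 passed, beside 18.9% of all genes (12.3% higher, 6.53% lower): Tgfb3 was 0.27 ± 0.077 higher in TCP than in T (limma adjusted p = 0.0166) and Smad3 0.26 ± 0.075 lower (0.0199). The Tgfb3 call ended without T replicate 2 (0.0752) or TCP replicate 3 (0.105). The Smad3 call ended without T replicate 1 (0.0581) or 3 (0.0646) or TCP replicate 1 (0.103) or 2 (0.0907), and its libraries overlapped. At 24 h 4 passed, beside 49.3% of all genes (31.4% higher, 18.0% lower): Smad7 (1.43 ± 0.13, limma adjusted p = 2.38e-08), Tgfb1 (0.40, 0.00251) and Tgfb2 (0.28, 0.0198) were higher in TCP, and Tgfbr2 (-0.21 ± 0.047, 0.00089) was lower. The Tgfb2 call ended without T replicate 2 (0.105) or 3 (0.077) or TCP replicate 2 (0.0862), after rescaling (0.0535) and with a pseudocount of 0.1 (0.073), and the Tgfb1 call with coding transcripts alone (0.558). Tgfbi (0.051, 0.751) and Lrrc15 (0.29, 0.145) did not pass, although Lrrc15 did without T replicate 3 (0.0381). Tgfb3 (0.19, 0.0506) narrowly missed, and passed without T replicate 3 (0.0402) or TCP replicate 3 (0.0202). It also passed in a fit of the 24 h libraries alone (0.0435) and with a pseudocount of 5 (0.0409). The same held with a mean of at least 5 TPM (0.0484) and with no variance trend (0.0491). Smad3 (-0.17, 0.0739) passed only after rescaling (0.00771) and in a fit of the 24 h libraries alone (0.0381). For all genes at 6 h and 24 h, the share of calls that were higher was 52.7% and 51.0% rescaled, and 65.4% and 63.6% as deposited.

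The combination was also set against the sum of the log2 changes of its parts. At 6 h 0 of the 9 genes differed from the sum by limma after adjustment and 1 at an unadjusted p under 0.05, beside 0.0954% of all genes called. At 24 h 4 fell short of the sum and none exceeded it, beside 31.8% of all genes called (15.6% lower). These were Tgfbi (-0.77 ± 0.17, limma adjusted p = 0.00149), Smad7 (-0.58 ± 0.18, 0.0183), Tgfb3 (-0.31 ± 0.11, 0.0378) and Tgfbr2 (-0.26 ± 0.066, 0.00506). Tgfbi combined changes of 0.82 with chemotherapy and 4.50 with trametinib and reached 4.55 with both. Leaving out a library gave between 2 and 6 such genes. The Smad7 call ended without NT replicate 3 (0.0562), CP replicate 1 (0.0504) or T replicate 1 (0.0557). The Tgfb3 call ended in 8 of the 12 cases, with adjusted p up to 0.106, the exceptions being NT replicate 1, CP replicate 2, T replicate 2 and TCP replicate 2. Without CP replicate 2, Tgfb1 (0.00498) and Smad3 (0.0305) also fell short, without NT replicate 3 (0.0465) or TCP replicate 3 (0.0436) Tgfb1 did, and without T replicate 1 Tgfb2 exceeded it (0.0164). The pseudocount mattered too: with 0.1 Lrrc15 fell short by -1.34 ± 0.29 (0.00153), where it was -0.34 ± 0.22 with 1 (0.266), and with 5 Tgfb2 exceeded the sum by 0.18 ± 0.061 (0.0278), Tgfb1 (0.0326) and Smad3 (0.0433) fell short and Tgfb3 did not pass (0.0646).

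**Figure D4:**
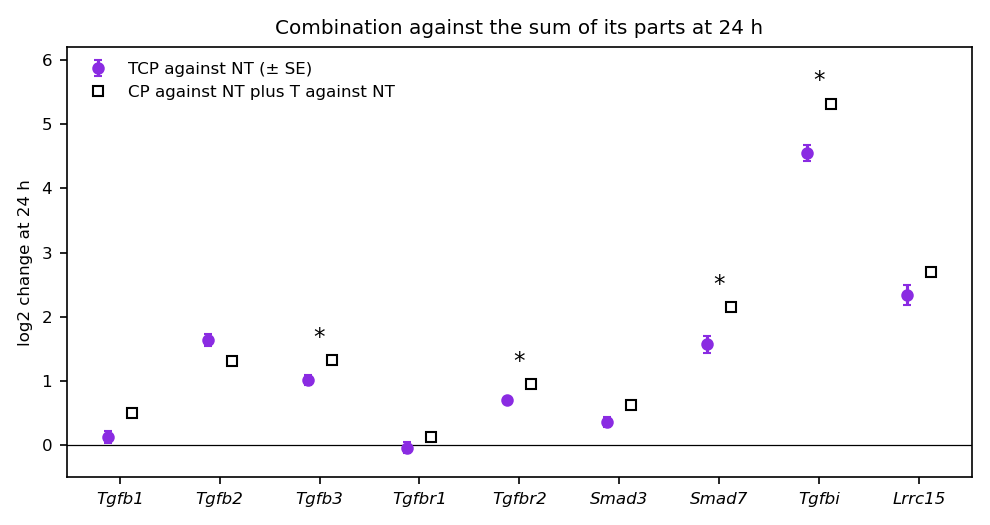
Change of each of the 9 genes against NT at 24 h in log2(TPM + 1): the change with TCP (circles, bars of 1 SE) and the sum of the CP and T changes (squares), with asterisks on genes that passed limma's test of the difference. Tgfbi, Smad7, Tgfb3 and Tgfbr2 lie below the sum by 0.77, 0.58, 0.31 and 0.26.

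In untreated cells 5 of the 9 genes differed between 24 h and 6 h, beside 60.8% of all genes (29.4% higher, 31.4% lower). At 24 h over 6 h, Tgfb3 and Smad3 rose, as given above, and Smad7, Lrrc15 (-0.87 ± 0.16, limma adjusted p = 0.0001) and Tgfbi (-0.34 ± 0.12, 0.0189) fell. The Tgfbi call ended without the 6 h NT replicate 3 (0.0538) or the 24 h NT replicate 2 (0.0793). Lrrc15 at 24 h was 0.165 times its level at 6 h, so the larger ratio with trametinib at 24 h stands over a lower untreated level. The size of the treatment change differed between the times for 4 of the 9 genes with chemotherapy, all toward higher values at 24 h, beside 45.1% of all genes (28.3% higher). It differed for 7 with trametinib (5 higher, 2 lower), beside 38.2% (15.9% higher, 22.3% lower), and for 7 with the combination (5 higher, 2 lower), beside 49.7% (25.3% higher, 24.3% lower). Among them, Tgfb2 changed more at 24 h with trametinib by 1.11 ± 0.13 (3.41e-06), Tgfbi by 1.60 ± 0.17 (5.19e-07), and Tgfb3 less by -0.37 ± 0.11 (0.011).

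The other genes of the pathway were read from 5 lists of 73 genes, of which 58 passed the filter. A gene low in untreated cells could pass only with the help of treated groups. In 5 (Itgb8, Acvrl1, Ccn2, Col1a1 and Col1a2) no untreated library reached 1 TPM. Genes with too few untreated libraries at 1 TPM to pass by these alone were not counted further, so the counts are a description. With chemotherapy 23 of the 58 passed at 6 h (5 higher, 18 lower), beside 24.8% of all genes, and 38 at 24 h (22 and 16), beside 59.2%. With trametinib 34 passed at 6 h (25 higher, 9 lower), beside 54.8%, and 42 at 24 h (31 and 11), beside 58.7%. With the combination 34 passed at 6 h (19 higher, 15 lower), beside 58.4%, and 44 at 24 h (34 and 10), beside 63.4%. The counts of each list below are to be read against the same shares at 24 h: 59.2% with CP (34.9% higher, 24.3% lower), 58.7% with T (32.4% higher, 26.3% lower) and 63.4% with TCP (39.6% higher, 23.8% lower). The median change of the 58 at 24 h was 0.073 with CP, 0.24 with T and 0.26 with TCP, beside the medians of all genes given above.

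Among 10 tested genes of ligand latency and activation, 5 rose and 1 fell with trametinib at 24 h, 4 rose and 3 fell with the combination, and 5 fell and none rose with chemotherapy, beside 58.7%, 63.4% and 59.2% of all genes called. Thbs1, whose product thrombospondin can release active TGF-β, averaged 2.58 TPM (CP), 40.9 TPM (T) and 36.6 TPM (TCP) at 24 h, against 3.70 TPM (NT), changes of -0.40, 3.15 and 3.0 (limma adjusted p = 0.00295, 7.21e-15 and 1.35e-14). Fbn1, the fibrillin that anchors latent complexes in matrix, averaged 3.92 TPM (CP), 27.6 TPM (T) and 21.4 TPM (TCP), against 5.7 TPM (NT), changes of -0.44, 2.09 and 1.74. Both genes therefore moved in opposite directions with chemotherapy and with trametinib. Ltbp1, which binds the latent ligand, fell in all 6 comparisons with untreated cells, by -0.24 with trametinib at 6 h as the smallest change and -0.75 with chemotherapy at 24 h as the largest, and averaged 92.6 TPM (CP), 97.7 TPM (T) and 107 TPM (TCP) at 24 h against 157 TPM (NT).

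Of 9 receptors and co-receptors, all tested, 3 rose and 2 fell with chemotherapy at 24 h, 5 rose and 3 fell with trametinib, and 5 rose and 2 fell with the combination, beside 59.2%, 58.7% and 63.4% of all genes called. Eng, the co-receptor endoglin, rose in all 6 comparisons and averaged 35.3 TPM (CP), 31.9 TPM (T) and 34.8 TPM (TCP) at 24 h, against 17.5 TPM (NT), with changes of 0.97, 0.83 and 0.95. Of 9 SMADs and nuclear partners, 4 rose and 1 fell with chemotherapy at 24 h, 3 rose and 2 fell with trametinib, and 5 rose and 1 fell with the combination, beside the same shares. Smad2, which shares receptor activation with Smad3, rose by 0.43 ± 0.094 with chemotherapy (limma adjusted p = 0.000624) and 0.25 ± 0.094 with the combination (0.0252), and its change with trametinib was 0.064 ± 0.094 (0.582). For Smad4, the shared partner, the 3 changes at 24 h were 0.10, 0.088 and 0.013 with CP, T and TCP, none of which passed. Tgif1, a repressor that binds SMADs, averaged 105 TPM (CP), 62.1 TPM (T) and 67.4 TPM (TCP) at 24 h, against 150 TPM (NT), falls of -0.52, -1.26 and -1.14. The repressor gene Ski rose with trametinib by 0.85 ± 0.11 (1.11e-06).

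Of 11 inhibitors and turnover factors, 6 rose and 2 fell with chemotherapy at 24 h, 3 rose and 3 fell with trametinib, and 4 rose and 1 fell with the combination, beside 59.2%, 58.7% and 63.4% of all genes called, so nothing is read from these counts. Rnf111, a ubiquitin ligase known to target SMAD7 for breakdown, averaged 15.9 TPM (CP), 10.9 TPM (T) and 16 TPM (TCP) at 24 h, against 9.22 TPM (NT), rises of 0.73, 0.22 and 0.74. It was thus highest in the groups in which Smad7 mRNA was highest. Usp15, a deubiquitinase that acts on the receptor and SMADs, fell by -0.61 ± 0.074 with trametinib at 24 h (limma adjusted p = 7.75e-07) and by -0.21 ± 0.074 with the combination (0.0171), and rose by 0.22 ± 0.074 with chemotherapy (0.0148).

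The target gene list, 19 tested of 26, did not move as a block. With trametinib at 24 h 15 rose and 2 fell, beside 58.7% of all genes called (32.4% higher), with a median of 0.91 beside 0.036 over all genes, and with the combination 16 rose and 3 fell, beside 63.4% (median 0.94 beside 0.103). With chemotherapy 9 rose and 6 fell, beside 59.2% (0.21 beside 0.057). These counts and medians include Ccn2, Col1a1 and Col1a2, which passed the filter only through treated groups in which they are high, and support nothing by themselves. Acta2, smooth muscle actin, averaged 3.16 TPM (CP), 141 TPM (T) and 25 TPM (TCP) at 24 h, against 6.35 TPM (NT), changes of -0.82, 4.26 and 1.81. Angptl4, an inhibitor of lipoprotein lipase, averaged 12.7 TPM (CP), 16.4 TPM (T) and 38.5 TPM (TCP), against 0.659 TPM (NT), rises of 3.07, 3.40 and 4.60. Acta2 was therefore highest with trametinib alone, and Angptl4 with the combination.

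Not every target rose with trametinib. Il11, a cytokine of the interleukin-6 family, averaged 5.95 TPM (CP), 0.558 TPM (T) and 0.769 TPM (TCP) at 24 h, against 18.5 TPM (NT), falls of -1.47, -3.62 and -3.43 (limma adjusted p = 6.35e-06, 2.25e-11 and 3.74e-11). By size these falls placed Il11 among the lowest genes with trametinib, at rank 12578 of 12581 from the largest rise down. At 6 h with trametinib Il11 fell by -2.28, while Acta2 rose by 1.83. The direction of a target's change with trametinib thus depended on the target.

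**Figure D5:**
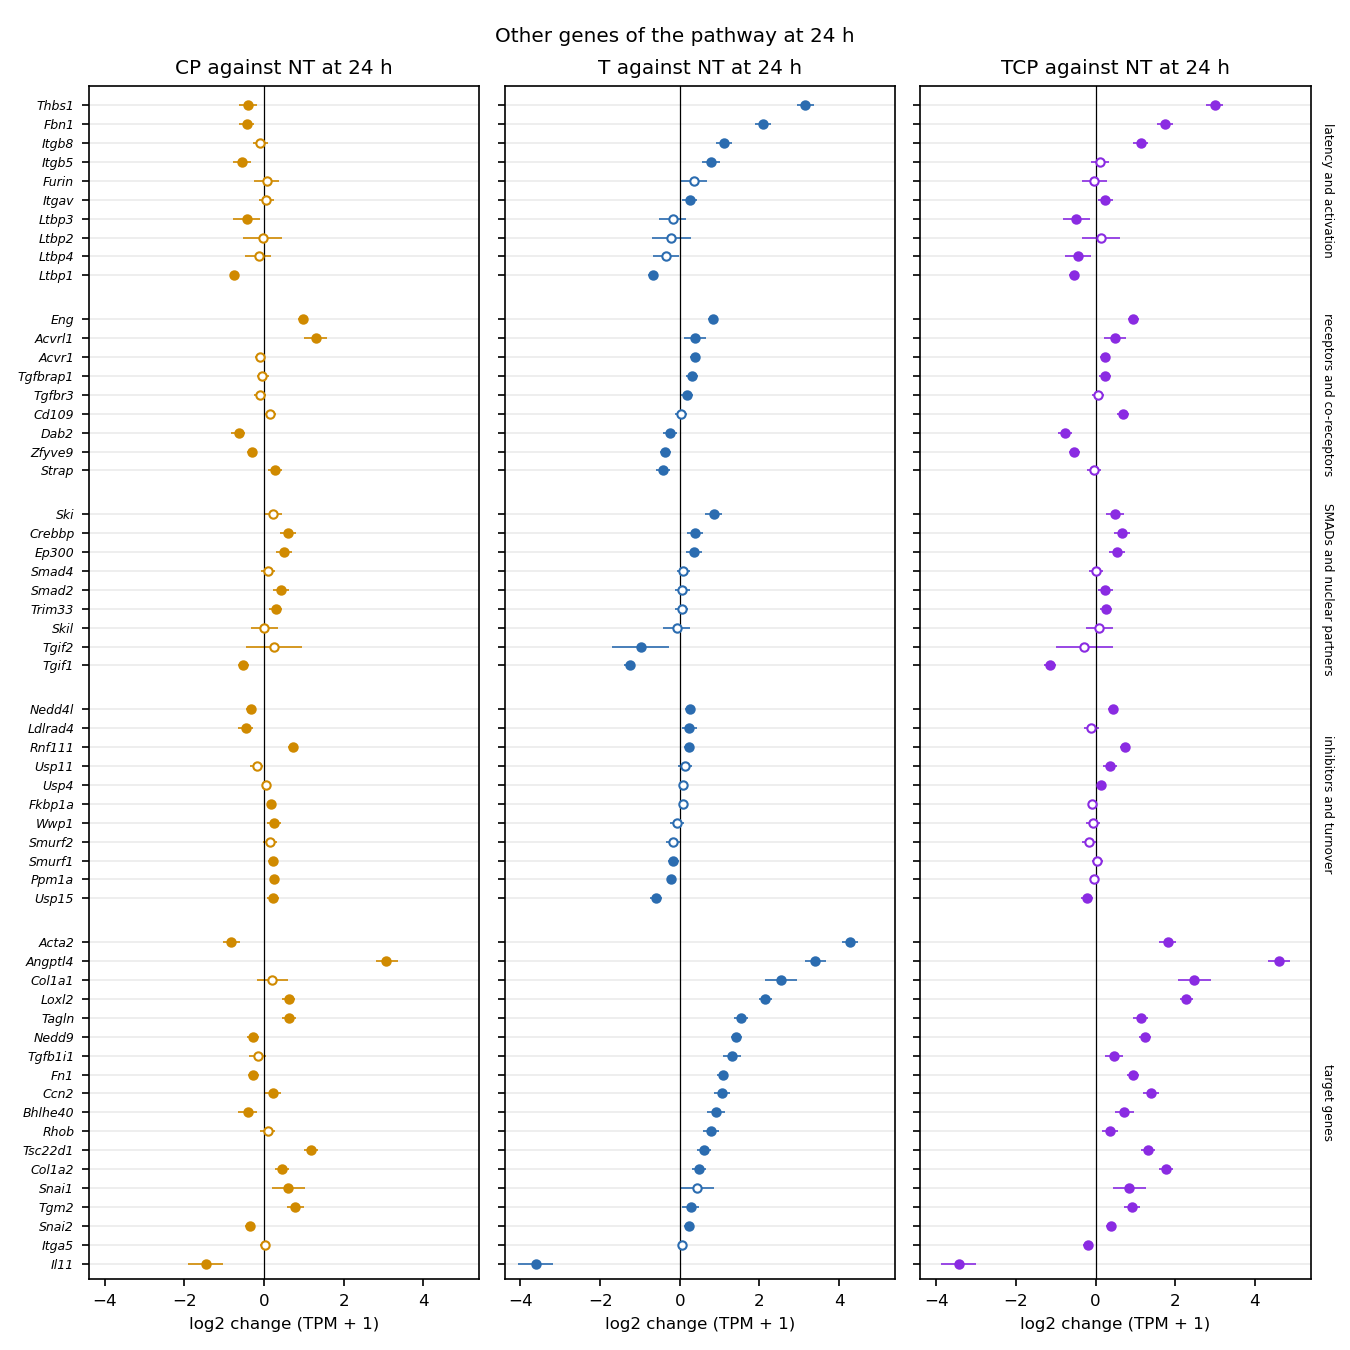
Change of other genes of the pathway at 24 h in log2(TPM + 1), with 95% intervals, for CP, T and TCP against NT, 1 row a gene in 5 lists ordered by the T change, with filled points for genes called. Thbs1, Fbn1 and Acta2 lie right of 0 with T and TCP and left of it with CP, and Il11 lies left of 0 in all 3 panels.

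The genes whose pattern was most like that of each gene were found by Pearson correlation over the 8 group means of log2(TPM + 1), among tested genes that averaged at least 5 TPM. Each of the 8 points is a mean of 3 libraries, and 8968 genes were compared for 7 of the 9 genes and 8969 for Tgfb2 and Lrrc15, so these are descriptions with no test. Closest to Tgfb1 were Sh3bp1 (r = 0.964), Nt5dc2 (0.963) and Ada (0.955), to Tgfb2 Ccnl1 (0.988), Plac8 (0.982) and Uba7 (0.975), and to Tgfb3 Cd81 (0.996), Dirc2 (0.990) and Ip6k2 (0.987). For the receptors they were Eogt (0.991), Tmem184c (0.975) and Hdac6 (0.963) for Tgfbr1, and Il6st (0.999), Cnn3 (0.996) and Il1r1 (0.993) for Tgfbr2. Il6st and Il1r1 encode cytokine receptor chains. For Smad3 they were Slc33a1 (0.989), Ube2g1 (0.983) and Btf3l4 (0.980), and for Smad7 Cox11 (0.987), Ythdf2 (0.976) and Hells (0.975). Closest to Tgfbi were Pacs2 (0.987), Filip1l (0.987) and Cdon (0.986), and to Lrrc15 Iqgap3 (0.989), Gid8 (0.983) and Zmat2 (0.983). No gene was among the 3 closest of more than one of the 9.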

How the data were processed

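Poly(A) mRNA libraries were made with a stranded kit, per the labels' protocols. The authors deposited TPM for 82934 transcripts in each of the 24 libraries. Per the submitters' processing notes, bcl2fastq 2.17.1.14 and kallisto 0.45 were used with the build GRCm38; which release of the transcripts was used is not stated there. Each column sums to 1000000, so TPM keeps no depth. The series' design text names a count model with a Bonferroni p under 0.10. TPM are not counts, so limma took its place and the Bonferroni rule was an alternative.

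TPM were summed per gene with GENCODE M21 (79662 transcripts, 28328 genes), leaving out 3272 unmatched transcripts with 4.45% to 5.98% of TPM. The 12581 genes that reached 1 TPM in 3 or more libraries were fitted as log2(TPM + 1) with limma 3.58.1 (R 4.3.3), with a mean per group over 24 libraries, a variance trend and 16 residual degrees of freedom, and two-sided p-values were adjusted by Benjamini-Hochberg in each of 16 comparisons. The fit was tested on simulated data. No libraries held identical values. Alternatives were pseudocounts of 0.1 and 5, no filter, a mean of at least 5 TPM, median-ratio rescaling, coding transcripts only, fits of one time, no variance trend, the Bonferroni rule, a replicate block and leaving out each library. All 9 genes are named. From the lists, the first 3 genes and up to 3 called genes with the largest change per comparison (at least 5 TPM in the higher group) could be named. Results for 1 gene of the lists are not reported here, in the figures too, though the counts include it. The genes, the lists and this rule were chosen with earlier results of these data known. Genes that were low or close copies of others are subject to division of shared reads, which was not measured.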

Additional observations from a re-analysis of the deposited data

Results flagged for a closer look

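The treatment changes listed here drew attention because they differed between 24 h and 6 h by limma's test of the difference itself, on the log2(TPM + 1) scale with Benjamini-Hochberg adjustment over all genes tested. With chemotherapy, 4 genes stood out in this way. Smad3 changed by 0.10 at 24 h and -0.30 at 6 h, a difference of 0.40 ± 0.11 (adjusted p = 0.00517). Smad7 changed by 2.01 at 24 h and -0.064 at 6 h, a difference of 2.08 ± 0.18 (adjusted p = 3.99e-08). Tgfbi changed by 0.82 at 24 h and 0.0064 at 6 h, a difference of 0.81 ± 0.17 (adjusted p = 0.000563). Lrrc15 changed by 0.63 at 24 h and -0.083 at 6 h, a difference of 0.71 ± 0.22 (adjusted p = 0.0141). All 4 differences were toward higher values at 24 h. With trametinib, 7 genes stood out in this way. Tgfb1 changed by -0.27 at 24 h and 0.33 at 6 h, a difference of -0.60 ± 0.14 (adjusted p = 0.00221). Tgfb2 changed by 1.36 at 24 h and 0.26 at 6 h, a difference of 1.11 ± 0.13 (adjusted p = 3.41e-06). Tgfb3 changed by 0.83 at 24 h and 1.20 at 6 h, a difference of -0.37 ± 0.11 (adjusted p = 0.011). Tgfbr2 changed by 0.91 at 24 h and 0.41 at 6 h, a difference of 0.50 ± 0.066 (adjusted p = 7.76e-06). Smad3 changed by 0.53 at 24 h and 0.12 at 6 h, a difference of 0.41 ± 0.11 (adjusted p = 0.00507). Smad7 changed by 0.14 at 24 h and -0.43 at 6 h, a difference of 0.57 ± 0.18 (adjusted p = 0.0163). Tgfbi changed by 4.50 at 24 h and 2.90 at 6 h, a difference of 1.60 ± 0.17 (adjusted p = 5.19e-07). Of these differences 5 were toward higher and 2 toward lower values at 24 h. With the combination, 7 genes stood out in this way. Tgfb1 changed by 0.13 at 24 h and 0.48 at 6 h, a difference of -0.36 ± 0.14 (adjusted p = 0.0421). Tgfb2 changed by 1.64 at 24 h and 0.36 at 6 h, a difference of 1.28 ± 0.13 (adjusted p = 2.99e-07). Tgfb3 changed by 1.02 at 24 h and 1.47 at 6 h, a difference of -0.46 ± 0.11 (adjusted p = 0.00175). Tgfbr2 changed by 0.70 at 24 h and 0.33 at 6 h, a difference of 0.37 ± 0.066 (adjusted p = 0.000128). Smad3 changed by 0.36 at 24 h and -0.14 at 6 h, a difference of 0.50 ± 0.11 (adjusted p = 0.000678). Smad7 changed by 1.57 at 24 h and -0.28 at 6 h, a difference of 1.86 ± 0.18 (adjusted p = 1.14e-07). Tgfbi changed by 4.55 at 24 h and 3.09 at 6 h, a difference of 1.46 ± 0.17 (adjusted p = 8.05e-07). Again 5 were toward higher and 2 toward lower values at 24 h. With coding transcripts alone the differences of Tgfb1 were larger, -0.78 ± 0.34 with trametinib (0.0843) and -0.62 ± 0.34 with the combination (0.155), but with the larger standard errors they were not called. With a pseudocount of 5, the difference of Tgfb3 with trametinib (-0.21, 0.0598) and that of Tgfb1 with the combination (-0.25, 0.0512) were not called, nor was the second with no filter (0.0707). That of Tgfb1 with the combination was also lost in 9 of the 12 cases of leaving out a library, with adjusted p up to 0.109: without 6 h NT replicate 2 or 3, any 6 h TCP replicate, 24 h NT replicate 2 or 3, or 24 h TCP replicate 1 or 2. That of Smad7 with trametinib was lost without 6 h NT replicate 2 (0.053), 24 h NT replicate 3 (0.0534) or 24 h T replicate 1 (0.052). The untreated Smad7 libraries stood at 4.52, 4.02 and 3.21 TPM at 24 h and at 8.63, 10.7 and 8.29 TPM at 6 h, and each treatment change is read against them.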

How the results depend on the processing

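With the Bonferroni rule of the series, an adjusted p under 0.10, the calls among the 9 genes were 0 for chemotherapy at 6 h (limma called 3, and 3 had an unadjusted p under 0.05), 4 for trametinib at 6 h, 4 for the combination at 6 h, 0 and 1 for TCP against T at 6 h and 24 h, and 0 beyond the sum at 24 h. They were 1, 3 and 3 for the differences of the CP, T and TCP changes between the times, and 2 for untreated cells at 24 h against 6 h. Among the 58 other pathway genes that rule left 3, 14 and 19 calls at 6 h and 14, 24 and 26 at 24 h with CP, T and TCP. With a mean of at least 5 TPM required, TCP against CP at 6 h had 3 calls, since Tgfb2 and Lrrc15 were then not tested. A fit of the 6 h libraries alone left 0 calls for TCP against T, where 2 genes had an unadjusted p under 0.05 in the fit of all libraries. Leaving out a library gave 11 to 24 calls among the other pathway genes with chemotherapy at 6 h (11 without NT replicate 2, 15 without CP replicate 2 or 3), 1 for TCP against T at 6 h in all 6 cases, and 2 (without CP replicate 1) to 6 beyond the sum at 24 h. The difference of the Lrrc15 change with the combination between the times turned with the pseudocount: 0.94 ± 0.29 with 0.1 (adjusted p = 0.0115), -0.19 with 1 and -0.47 with 5 (0.00946). That with trametinib was 0.70 with 0.1, -0.37 with 1 and -0.56 with 5, the last called (0.00377). The Lrrc15 difference with chemotherapy was not called with a pseudocount of 5 (0.20, adjusted p = 0.27). Over the 9 genes and all comparisons, leaving out a library kept direction and side of the threshold in 1063 cases, ended a call in 52 and made one in 19, and rescaling did so in 131, 5 and 8.

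Replicate numbers were shared between groups, but same-numbered libraries did not deviate together throughout: of 30 pairs within a time 8 correlated above 0.1, over a range of -0.32 to 0.33, and in 10 a library was closest to its own number. At 24 h the correlations with the NT library of the same number were -0.05, 0.33 and 0.21 (CP), 0.18, -0.28 and -0.17 (T) and 0.22, 0.05 and 0.25 (TCP). As the labels do not say what the numbers stand for, they were not taken as a pairing. With a replicate block within each time, Tgfb2 with trametinib at 6 h (0.0547) and Tgfbr1 with the combination at 6 h (0.0601) were not called, and Smad7 with the combination at 6 h (0.044) and Smad3 beyond the sum at 24 h (0.0486) were. The 9 genes then had 6 calls with trametinib at 6 h and 5 beyond the sum at 24 h, and the block changed no other call among them. The other pathway genes had 16, 31 and 33 calls at 6 h and 38, 41 and 43 at 24 h with CP, T and TCP.

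The read depth behind TPM is unknown, so no counting error is given, and the low levels of Lrrc15 and Tgfb2 limit their ratios. There were 3 libraries a group from 1 cell line, and mRNA levels say nothing of ligand activation, receptor protein or SMAD phosphorylation.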

Other observations

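Of the 73 other genes of the pathway, 15 did not reach the filter and entered no comparison. Postn, Cdkn2b and Igfbp3, all known targets in other cells, were listed at 0 in every library, as lowest and highest value. Lrrc32, which presents latent TGF-β on the surface of regulatory T cells, ranged from 0.0448 to 1.01 TPM, and Nrros, its relative in myeloid cells, from 0.124 to 0.738 TPM. The integrin genes Itgb3 and Itgb6 ranged from 0.181 to 0.536 TPM and from 0.0241 to 0.471 TPM. Among inhibitors, Smad6 reached 0.834 TPM, Bambi 0.0952 TPM and Pmepa1 0.0855 TPM at most, so of the inhibitory SMAD genes Smad7 alone was above the filter.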
